A study of Mus musculus with 9 samples.

Results

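In mouse ovarian surface epithelial (MOSE) cells a small set of genes gave high signals at early passage and low signals at both intermediate and late passage. For Hspa1b and Zdhhc2 a brighter probe set went part of the way only. The set was defined by signal alone. A gene belonged to it when a probe set naming no other gene gave a signal over 500 on all 3 MOSE-E arrays and under 200 on all 6 MOSE-I and MOSE-L arrays, and it was then represented by the brightest such probe set. The rule took 12 of the 18193 genes that a probe set names alone, and of the 5834 genes over 500 on all MOSE-E arrays. They were Bex4, Bves, Col11a1, Col8a1, Ddx4, Grb10, Hspa1b, Klhl13, Nid2, Popdc3, Satb1 and Zdhhc2. The same rule turned to other courses took 11 genes that went from high to low after the intermediate stage, 3 that were low in MOSE-I cells only, and 1 that went from low in MOSE-E to high in both later stages.

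The cells were derived from C57BL6 mice and became transformed spontaneously in culture. Total RNA was taken from 3 cultures of each stage: MOSE-E at passages 13, 14 and 15, labelled non-malignant, MOSE-I at passages 63, 71 and 73, and MOSE-L at passages 136, 142 and 143, the most malignant stage. All were grown in the same high-glucose medium with serum, insulin, transferrin and selenite, so the stages differ by passage and by what the cells became over it, which cannot be told apart. All 9 cultures descend from 1 cell series, and tests between stages measure the spread among its cultures only. The deposited signals were made comparable by setting the trimmed mean of each array to 500. The upper limit of the rule is thus the scaling target itself, and 26972 to 29564 probe sets per array lay under its lower limit of 200. Detection calls were not used here, so whether a signal under 200 lay above background is not known, and a low message cannot be told apart from an absent one.

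The ovarian surface epithelium is a single layer of flat to cuboidal cells that rests on a basement membrane, a sheet of laminins and type IV collagen joined by nidogens and perlecan. Its cells carry epithelial keratins and also make fibrillar collagens, and in culture they can take on a mesenchymal shape. Of the 10 markers of this epithelium, 9 gave a signal over 500 on some array (all but Lhx9), and the summed signal of the list ran from 61773 to 67714 on the MOSE-E, from 50731 to 63062 on the MOSE-I and from 43649 to 61503 on the MOSE-L arrays. All calls among the markers were lower, and some markers, Upk3b among them, were not called. Of the 9 tested, 4 were called lower and 0 higher in MOSE-I than in MOSE-E cells, and 5 lower and 0 higher in MOSE-L cells, with median differences of -0.29 and -1.11 on the scale of log2(signal + 50), used throughout. At an unadjusted p under 0.05, limma gave 0 and 1 higher. Cdh1 (E-cadherin) was among those called lower, at MOSE-I not without MOSE-E replicate 2, with 949, 782 and 486 across MOSE-E, 52.6, 73.2 and 42.1 across MOSE-I, and 6.89, 56.9 and 93.3 across MOSE-L arrays, while Upk3b, a membrane protein of mesothelial cells, gave 13698, 13074 and 16369 across MOSE-E, 6291, 21384 and 13851 across MOSE-I, and 28467, 16607 and 21390.0 across MOSE-L arrays. In a longer list of epithelial and mesothelial genes 9 of 25 were called lower and 1 higher in MOSE-I, and 13 lower and 1 higher in MOSE-L cells. None of the 5 endothelial and none of the 4 oviduct epithelium markers exceeded 500 on any array, and 1 of 5 leukocyte and 1 of 6 granulosa and theca markers did. In RNA from whole cultures, fewer cells of a type and less RNA per cell cannot be told apart.

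The 12 genes include matrix proteins, membrane proteins, regulators of signalling and protein turnover, a chromatin organizer and a germ cell helicase. Because the signals of all 9 arrays chose them, the differences between MOSE-E and the later stages are given as a description and were not tested. The median difference from MOSE-E was -3.68 at MOSE-I and -3.81 at MOSE-L, beside 0.034 and 0.031 over the 7952 genes tested. Over the 13845 probe sets tested, 520 (3.76%) were called lower in MOSE-I and 1021 (7.37%) lower in MOSE-L cells relative to MOSE-E, where a call in limma took an adjusted p no higher than 0.05 together with a difference of 1 or more.

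**Figure D1:**
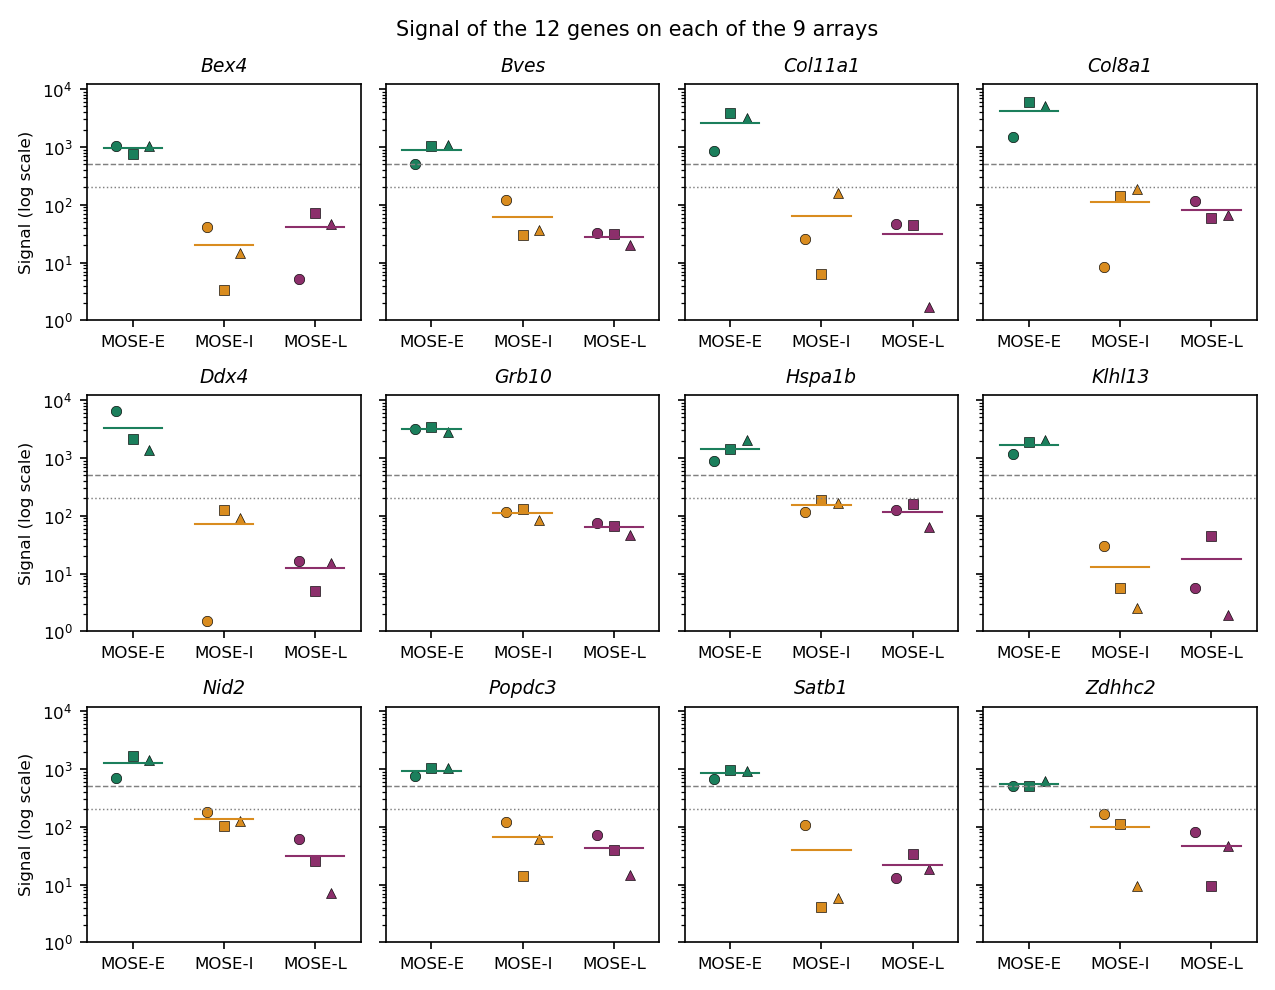
Signal of each of the 12 genes (vertical axis, log scale) by stage (MOSE-E, then MOSE-I, then MOSE-L), 1 symbol per array (circle, square and triangle for replicates 1, 2 and 3) with a line at the mean of the 3. The dashed line marks 500 and the dotted line 200, and no gene has a signal between them by the rule.

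Col8a1 encodes the alpha 1 chain of type VIII collagen, a short collagen that forms networks, and its signals were 1481, 6088 and 5127 across MOSE-E, 8.30, 143 and 188 across MOSE-I, and 115, 59.9 and 67.1 across MOSE-L arrays. MOSE-E replicate 1 was far below the other MOSE-E arrays, and the later arrays were all under 200 with no order between MOSE-I and MOSE-L. The difference from MOSE-E was -4.72 at MOSE-I and -4.83 at MOSE-L. Col11a1, the alpha 1 chain of the fibrillar type XI collagen, which sets the diameter of collagen fibrils, also had its lowest MOSE-E signal on replicate 1. Its signals were 848, 3830.0 and 3136 across MOSE-E, 25.8, 6.46 and 157 across MOSE-I, and 46.1, 43.9 and 1.73 across MOSE-L arrays. The differences from MOSE-E were -4.54 and -4.85. Nid2 (nidogen 2), which links laminin to type IV collagen in the basement membrane, gave signals of 703, 1649 and 1403 across MOSE-E, 181, 103 and 124 across MOSE-I, and 61.9, 25.1 and 7.06 across MOSE-L arrays. Here the lowest MOSE-I array was above the highest MOSE-L array, so that the later stages did not overlap, and the differences from MOSE-E were -2.75 and -3.97.

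Some other genes of these matrix families were lower too, and most were not called. Of 20 further collagen genes tested, 7 were called lower and 0 higher in MOSE-I than in MOSE-E cells, and 7 lower and 1 higher in MOSE-L cells, with median differences of -0.82 and -0.83. Over all 7952 tested genes, 3.61% were called lower and 2.29% higher in MOSE-I, and 7.49% lower and 8.11% higher in MOSE-L cells. Of 27 further matrix glycoproteins and proteoglycans, 11 were lower and 1 higher in MOSE-I and 9 lower and 3 higher in MOSE-L cells, with medians of -1.05 and -0.68. Col4a1, a type IV collagen chain, had a MOSE-E mean of 24931 ± 9546, a MOSE-I mean of 5226 ± 1416 and a MOSE-L mean of 2419.6 ± 816 (SD, n = 3), and a difference of -2.19 (SE 0.35, limma adjusted p = 0.00725) at MOSE-I. Its signal fell and remained over 500 on every later array.

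Nid1, the paralog of Nid2, lay just outside the rule. By its brightest tested probe set it had a MOSE-E mean of 7157 ± 2837, a MOSE-I mean of 493 ± 149 and a MOSE-L mean of 66.4 ± 3.98 (SD, n = 3). The differences were -3.68 (SE 0.301, limma adjusted p = 0.000362) and -5.87 (SE 0.301, adjusted p = 1.23e-06). Both nidogens thus had lower group means in MOSE-L than in MOSE-I cells, and Nid1 was held out of the set by its MOSE-I level, on another probe set by a single array at 215. Tnc (tenascin C), a matrix glycoprotein of healing tissue and of tumour stroma, was lower in MOSE-I, with a difference of -2.43 (SE 0.484, limma adjusted p = 0.0154), a call that was lost without MOSE-E replicate 2 or 3 or MOSE-I replicate 3.

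Several gene families were added to the comparison after the values of the 12 genes had been seen, and their counts are given as descriptions only. Of 12 further basement membrane genes tested, 7 were called lower and 0 higher in MOSE-I than in MOSE-E cells, and 5 lower and 0 higher in MOSE-L cells, with medians of -1.69 and -0.85. The laminin gamma 1 chain, Lamc1, shows this course, with a MOSE-E mean of 2819 ± 1109, a MOSE-I mean of 646 ± 59.3 and a MOSE-L mean of 1188 ± 658 (SD, n = 3). Its call at MOSE-I was lost without MOSE-E replicate 2 or 3 or MOSE-I replicate 3. Its MOSE-L mean lay above its MOSE-I mean, where that of Nid2 lay below. The type V collagen chains Col5a1 and Col5a2, which assemble into fibrils with type XI chains, were lower in MOSE-L cells, with differences of -1.33 (SE 0.394, limma adjusted p = 0.031) and -1.72 (SE 0.312, adjusted p = 0.00346). The Col5a1 call was lost without MOSE-E replicate 2 or 3, among other alternatives, and the Col5a2 mean in MOSE-L cells was still 9696 ± 2887 (SD, n = 3) on its own probe set, far over the limit of 200.

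Popdc3 and Bves (also called Popdc1) encode Popeye domain proteins, membrane proteins that bind cyclic AMP and are best known from heart and skeletal muscle. Bves is also found at the tight junctions of epithelia. Popdc3 gave 754, 1034 and 1027 across MOSE-E, 119.9, 13.9 and 62.6 across MOSE-I, and 73.0, 39.0 and 14.9 across MOSE-L arrays. Bves gave 517, 1036 and 1099 across MOSE-E, 119, 29.4 and 35.9 across MOSE-I, and 32.1, 31.6 and 20.3 across MOSE-L arrays. Bves passed the upper limit narrowly on MOSE-E replicate 1, and in both genes MOSE-I replicate 1 gave the highest of the later signals. The differences from MOSE-E were -3.19 and -3.46 for Popdc3 and -3.09 and -3.52 for Bves, in the order of the stages. Popdc2, the remaining member of the family, is on the array but did not pass the filter on signal.

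Zdhhc2 encodes a palmitoyltransferase, an enzyme that attaches palmitate to cysteines of membrane proteins. It gave signals of 513, 503 and 615 across MOSE-E, 169, 113 and 9.41 across MOSE-I, and 82.1, 9.34 and 46.3 across MOSE-L arrays. The MOSE-E arrays were close to each other and just above the limit, and the differences from MOSE-E were -2.20 and -2.70. A brighter probe set for Zdhhc2 did not pass the rule, with 1099, 1102 and 1272 across MOSE-E, 408, 276 and 152 across MOSE-I, and 164, 219 and 87.4 across MOSE-L arrays. It had the same order of stages at a higher level, so the message was reduced, and by this probe set it was not under 200 on every later array. Of 15 further palmitoyltransferase genes tested, 1 was called lower and 0 higher in MOSE-I cells, and 1 lower and 1 higher in MOSE-L cells, with medians of 0.05 and 0.08.

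Grb10 is an adaptor protein that binds the activated insulin and IGF1 receptors and limits their signalling, and its gene is imprinted. Grb10 signals were 3122, 3394 and 2782 across MOSE-E, 115, 129 and 85.2 across MOSE-I, and 75.6, 67.0 and 46.4 across MOSE-L arrays. Here the 3 MOSE-E arrays nearly coincided, and every later array lay far below them, with differences of -4.31 and -4.80. A further passing probe set for Grb10 gave 553, 618 and 538 on the MOSE-E arrays and at most 104 on the later ones. Of 14 further genes of the IGF axis tested, 3 were called lower and 0 higher in MOSE-I cells, and 3 lower and 3 higher in MOSE-L cells, with medians of -0.45 and -0.23. Igfbp2, which binds IGFs outside the cell, had the largest difference of the 3 called at MOSE-I, with 2641, 7191 and 5563 across MOSE-E, 99.5, 64.5 and 8.39 across MOSE-I, and 747, 153 and 127 across MOSE-L arrays. MOSE-L replicate 1 kept it out of the set, and the gene joined when that array was left out. Of 10 further imprinted genes tested, 1 was called lower and 0 higher in MOSE-I cells, and 4 lower and 3 higher in MOSE-L cells. The 1 was Peg3, a zinc finger gene expressed from the paternal copy, with a difference of -1.17 (SE 0.26, limma adjusted p = 0.0227), a call lost with an equal median per array and without MOSE-E replicate 2 or 3 or MOSE-I replicate 1 or 3. The only tested relative of Grb10, the adaptor Grb14, was not called at MOSE-I, with signals there of 253, 2087 and 1566 after 686, 639 and 819 on the MOSE-E arrays. Without MOSE-I replicate 1 it was called higher there, with a difference of 1.29. In MOSE-L cells Grb14 gave 266, 162 and 117 and was called lower, with a difference of -1.76 (SE 0.583, limma adjusted p = 0.0459), a call lost in 10 of the alternatives, leaving out any MOSE-E array among them.

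Klhl13 is a substrate adaptor of the Cul3 ubiquitin ligase which, in human cells, acts with Klhl9 to remove Aurora B from mitotic chromosomes. Its signals were 1155, 1866 and 2038 across MOSE-E, 30.1, 5.70 and 2.54 across MOSE-I, and 5.58, 45.1 and 1.91 across MOSE-L arrays. All 6 later signals were under the added value of 50, so the differences of -4.78 and -4.70 are set by the MOSE-E level and that value. Its partners did not follow it at MOSE-I: Klhl9 differed by 0.01 (SE 0.185), Cul3 by -0.08 (SE 0.171) and Aurkb (Aurora B) by 0.23 (SE 0.454), and 0 of 7 genes of this group were called in either direction there, while 4 were called lower in MOSE-L cells. Aurkb was called lower in MOSE-L cells, with a difference of -1.44 (SE 0.454, limma adjusted p = 0.0391), a call lost in 8 alternatives. Klhl9 gave 3321, 3440.1 and 3718 across MOSE-E, 3386, 3416 and 3769 across MOSE-I, and 4528, 3461 and 3115 across MOSE-L arrays.

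Hspa1b encodes inducible Hsp70, a chaperone that heat and other stress raise many-fold. The signals of its member probe set were 874, 1406 and 2073 across MOSE-E, 116, 186 and 164 across MOSE-I, and 127, 161 and 63.1 across MOSE-L arrays. A brighter probe set for Hspa1b, with 2962, 3929 and 5193 across MOSE-E, 375, 550.3 and 365 across MOSE-I, and 159.7, 437 and 183 across MOSE-L arrays, exceeded 500 on MOSE-I replicate 2. By this probe set the signal was lower at both later stages but not under 200 on every array. Hspa1a, a paralog with nearly the same sequence, gave 211, 308 and 429.6 on the MOSE-E arrays and at most 64.8 on later ones, and probes of the pair may bind both messages. Of 18 further heat shock proteins and co-chaperones tested, 2 were called lower and 0 higher in MOSE-I cells and 2 lower and 0 higher in MOSE-L cells, with medians of -0.08 and -0.28. The constitutive Hspa8 differed by 0.23 (SE 0.242) at MOSE-I, with a mean signal of 38026 ± 6259.9 in MOSE-E cells (SD, n = 3).

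Satb1 is a nuclear protein that binds AT-rich DNA and organizes chromatin loops, best known from T cells. It gave 661, 956 and 928 across MOSE-E, 109, 4.10 and 5.81 across MOSE-I, and 12.8, 34.0 and 18.5 across MOSE-L arrays. MOSE-I replicate 1 stood above the other 5 later arrays, and the differences were -3.50 and -3.64. On a further passing probe set the same array gave 15.4, no higher than its group, beside 745, 714 and 811 on the MOSE-E arrays. Of 32 further developmental transcription factors tested, 5 were called lower and 5 higher in MOSE-I cells, and 7 lower and 4 higher in MOSE-L cells, so factors of this list changed both ways. Twist2, a factor of mesenchymal cells, was higher in MOSE-I cells by 4.17 (SE 0.326, limma adjusted p = 0.000305), and Sox11, a factor of neural and mesenchymal progenitors, differed by -2.30 (adjusted p = 0.0479), a call lost in 11 of the alternatives.

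Bex4 encodes a small protein of the Bex and Tceal cluster on the X chromosome. Signals of Bex4 were 1053, 742 and 1042 across MOSE-E, 41.9, 3.41 and 14.7 across MOSE-I, and 5.28, 73.0 and 45.7 across MOSE-L arrays. All MOSE-I signals were under 50, and the differences were -3.85 and -3.51. The 3 further genes of the cluster that were tested, Bex3, Tceal8 and Tceal9, were not called in either later stage, and Bex3 gave 7436, 6428 and 7028 on the MOSE-I after 5083, 4479 and 4383 on the MOSE-E arrays. Bex4 and Klhl13 were the X-linked genes of the set. Of 13 further genes of a list on X chromosome dosage, 3 were called lower and 0 higher in MOSE-I, and 2 lower and 0 higher in MOSE-L cells. They include Xist, the RNA that coats the inactive X chromosome, with a MOSE-E mean of 13898 ± 6464, a MOSE-I mean of 2611 ± 319.8 and a MOSE-L mean of 1979.9 ± 803 (SD, n = 3). The Xist call at MOSE-I was lost without MOSE-E replicate 2 or 3, and that at MOSE-L held in all 18 alternatives.

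Ddx4, the mouse counterpart of Vasa, is an RNA helicase of the germ line and a common marker of germ cells. Ddx4 gave 6515, 2124 and 1363 across MOSE-E, 1.54, 127 and 89.8 across MOSE-I, and 16.6, 4.95 and 15.5 across MOSE-L arrays. MOSE-E replicate 1 was the highest, the reverse of the order in the collagens, and the differences were -4.65 and -5.45. Of 25 other germ cell markers on the array, a list made after the values of Ddx4 had been seen, none exceeded 500 on any array and none exceeded 200 on a MOSE-E array, where their highest signal was 186. Their summed signal ran from 1368 to 1794 on the MOSE-E, from 1283 to 1718 on the MOSE-I and from 2096 to 2579 on the MOSE-L arrays. Whether MOSE-E signals this low lay above background is not known, so the sums do not show whether these markers follow Ddx4. Ddx4 is named by 1 probe set only, and no further probe set bears on it.

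Within MOSE-E the 12 genes differed between replicates. Replicate 1 was the lowest MOSE-E array in 8 of them and the highest in 2, Bex4 and Ddx4, and it lay between the others in 2, while it was the lowest in 37.9% of all tested probe sets. In Col8a1, Col11a1 and Nid2 its signal was under 50% of each of the other signals, which was so for 2.79% of tested probe sets. The median of replicate 1 minus the mean of replicates 2 and 3 was -0.61 over the 12 genes, beside 0.029 (SD 0.467) over all tested probe sets, with -1.97 for Col11a1, -1.88 for Col8a1, -1.06 for Nid2 and 1.91 for Ddx4. Smooth muscle and matrix genes moved with this split. Replicate 1 was the lowest MOSE-E array in 20 of 20 further collagen genes, with a median difference of -1.06 from the mean of the others. It was the lowest in 24 of 27 further matrix glycoproteins and proteoglycans and the highest in 1, with a median of -0.79. In the basement membrane list it was the lowest in 12 of 12 further genes, with a median of -1.19. Of 26 tested genes of smooth muscle and the actin cytoskeleton, replicate 1 was the lowest MOSE-E array in 25, with a median difference of -1.13 from the mean of the others, and 11 were called lower at MOSE-I and 18 at MOSE-L. Acta2 (smooth muscle actin) gave 24223, 47852 and 58909 across MOSE-E, 6559, 24746 and 14825 across MOSE-I, and 1515, 780.2 and 323 across MOSE-L arrays. The summed signal of the 4 smooth muscle markers, of which 2 exceeded 500 on some array and Myh11 and Des did not, ran from 24455 to 61158, from 6725 to 25211 and from 554 to 1789, and was nearly all Acta2 on the MOSE-E and MOSE-I arrays. That of the 7 fibroblast or stroma markers, 5 of them over 500 on some array and Lum and Thy1 not, ran from 29924 to 79765, from 16266 to 46932 and from 36822 to 48506. Of the 5 of these tested, 2 were called lower and 1 higher in MOSE-I, and 1 lower and 1 higher in MOSE-L cells. Their median differences were 1.03 and -0.27, and a single signal on a MOSE-E array reached 45720. The part of either cell type in the results was not tested.

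**Figure D2:**
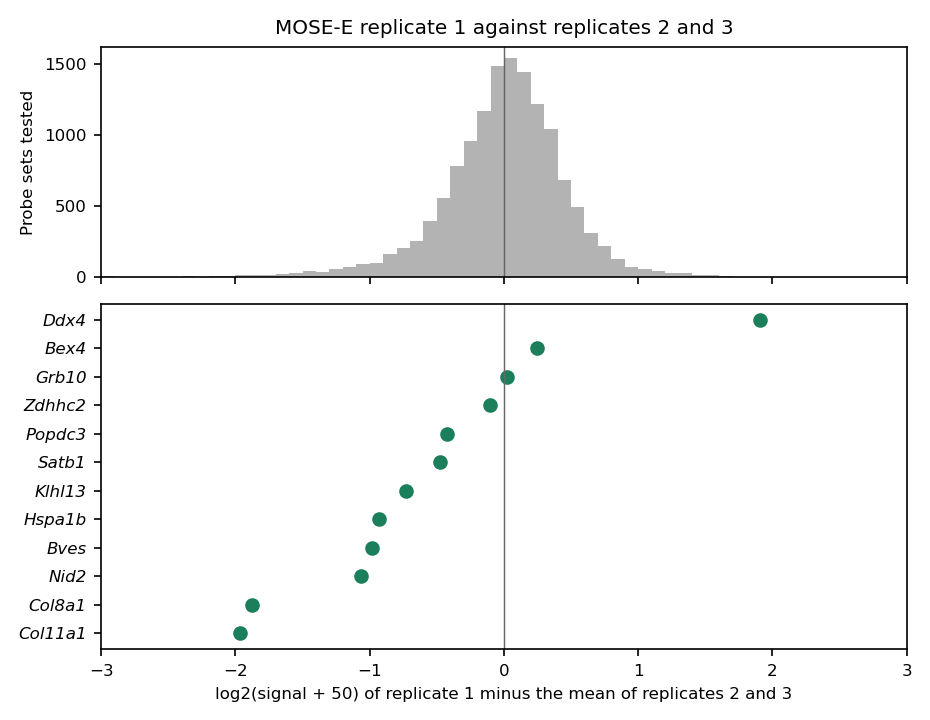
Difference in log2(signal + 50) between MOSE-E replicate 1 and the mean of replicates 2 and 3 (horizontal axis), for the 13845 tested probe sets as a histogram (top; values beyond 3 are counted in the end bins) and for the 12 genes as points (bottom). Col11a1 at -1.97 and Col8a1 at -1.88 lie low and Ddx4 at 1.91 lies high, where the SD over tested probe sets is 0.467.

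The limits of the rule fell among genes of similar course. The lowest MOSE-E signals inside were 502.5 for Zdhhc2, 517 for Bves and 661 for Satb1, and just outside were Nppb with 492, Gabra4 with 489 and Cdh1 (E-cadherin) with 486. On the other limit the highest later signals inside were 188 for Col8a1, 186 for Hspa1b and 181 for Nid2, and outside were 215 for Nid1, 239 for Klhl30 and 284 for Akap12. A limit of 1000 for MOSE-E cells left 4 of the 12 genes, and a limit of 100 for the later arrays left 3. Limits of 400 and 250 gave 25 genes, all 12 among them. Without MOSE-E replicate 1 the rule took 31 genes, the 12 and 19 more, among them the smooth muscle genes Acta2, Actg2 and Cnn1. Acta2 entered by a dimmer probe set, because its brightest tested one gave 6559, 24746 and 14825 on the MOSE-I arrays. Without MOSE-I replicate 1 the rule took 19 genes.

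The 12 genes are named by 28 probe sets, 16 of which passed the rule. Of the 12 that did not, 10 still had every MOSE-E array above every later array, and 2, both dim probe sets for Satb1, did not. In 4 genes at least 2 probe sets passed, 4 genes had a single probe set, and in 10 of the 12 no probe set gave a later signal over 200. Hspa1b and Zdhhc2 were the exceptions, and in both a brighter probe set failed the rule.

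**Figure D3:**
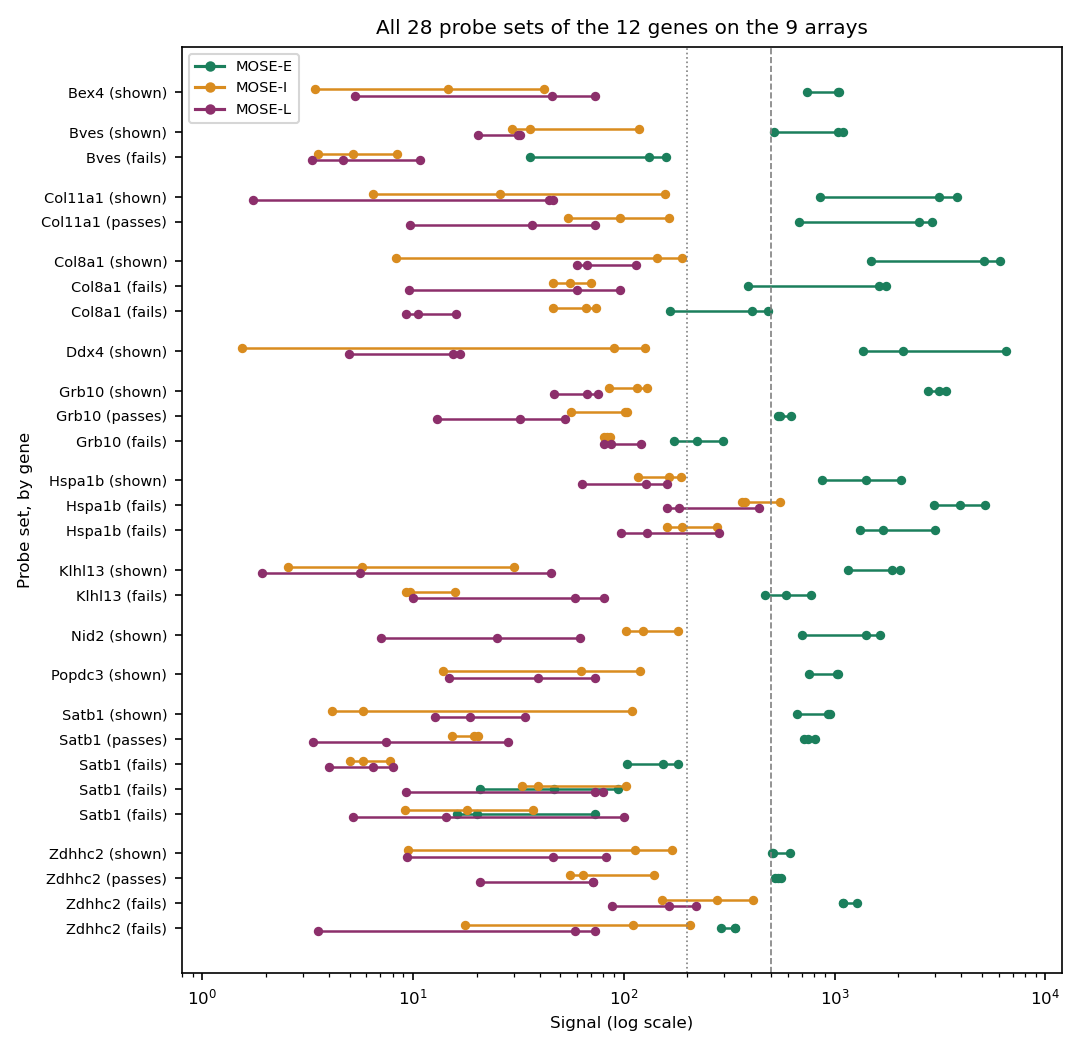
Signals (horizontal axis, log scale) of all 28 probe sets of the 12 genes, 1 point per array and 1 line per stage over the range of its 3 arrays. The labels mark the probe set that represents the gene (shown), others that pass the rule (passes) and those that do not (fails), the dashed line is 500 and the dotted line 200, and the brighter probe sets for Hspa1b and Zdhhc2 cross 200 on later arrays.

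Between MOSE-I and MOSE-L cells the rule set both stages under 200, so their difference could reach at most 2.32. Of the 12 probe sets 1 was called lower in MOSE-L than in MOSE-I cells and 0 higher, beside 13.9% of all 13845 tested probe sets called in either direction, a share that nothing is read from because the rule limited both stages. The 1 was Nid2, with a difference of -1.23 (SE 0.396, limma adjusted p = 0.0425, adjusted over all tested probe sets), lower in 3 of 3 MOSE-L arrays than in any MOSE-I array. The call did not hold under most alternatives: over 17 other fits the adjusted p of Nid2 ran from 0.0184 to 0.139. With the replicate number as a block 0 of the 12 were called. At an unadjusted p under 0.05, 2 were lower, Nid2 and Grb10 (difference -0.50, SE 0.225, limma adjusted p = 0.115), and 0 were higher. The group mean was higher in MOSE-I than in MOSE-L cells in 10 of the 12, the exceptions being Bex4 and Klhl13, and the median difference was -0.32, beside -0.006 over all tested probe sets. Of the later signals 40 of 72 were under 50, 16 of 36 at MOSE-I and 24 of 36 at MOSE-L. In 10 genes the highest later signal was on a MOSE-I array, in 5 of them on replicate 1. The rule limited the signals behind these p-values and means as well, so they are given as a description only.

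The genes lie on 9 chromosomes, and Popdc3 and Bves are next to each other on chromosome 10 by the RefSeq gene table for GRCm38.p6. To ask whether neighbouring genes were low as well, the nearest tested gene on each side was taken. Closer genes that were not tested were passed over. Among these, Hspa1a beside Hspa1b gave 211, 308 and 429.6 on the MOSE-E and at most 64.8 on later arrays, by probes that may bind both messages. LOC102631979 beside Grb10 gave 119, 270 and 193, and at most 70.8 later. Slc38a9 beside Ddx4 was not lower, with 221, 253 and 233 on the MOSE-E and 220 to 373 on later arrays, and the others were dim throughout. Of 22 nearest tested neighbours outside the set, 1 (4.55%) was called lower and 0 higher in MOSE-I cells, beside 3.61% of all tested genes called lower, and the median difference was -0.22. The 1 was Micu3 beside Zdhhc2, a regulator of mitochondrial calcium uptake, with 261, 139 and 134 on the MOSE-I after 335, 463 and 531 on the MOSE-E arrays, a difference of -1.14 (limma adjusted p = 0.0487) that was lost in 8 alternatives. The call was kept in 7. In the others Micu3 did not pass the filter, leaving out MOSE-E replicate 3 among them. On the outer sides of the Popdc3 and Bves pair, the peptidase gene Prep differed by -0.14 and Ascc3 by -0.72, and neither was called. Of the neighbours of Grb10, Ddc, an enzyme of dopamine and serotonin synthesis, gave 211, 2699 and 2076 on the MOSE-I after 1255, 864 and 948 on the MOSE-E arrays, and Egfr, the epidermal growth factor receptor, gave 456, 1119.7 and 1149 after 883, 1807 and 1738. In both, MOSE-I replicate 1 was below its group, and neither was called at MOSE-I, though Ddc was called higher there without that array, with a difference of 1.19. In MOSE-L cells 3 of the 22 neighbours (13.6%) were called lower and 1 (4.55%) higher, beside 7.49% and 8.11% of all tested genes, with a median difference of -0.23. The largest was Ddc, which fell to 92.9, 67.4 and 19.1 on the MOSE-L arrays, with a difference of -3.33 (limma adjusted p = 0.00731) that was called in all 18 alternatives. Plpp1, a lipid phosphatase beside Ddx4, and Lsm2, an RNA-binding protein beside Hspa1b, were also lower, with differences of -1.15 (limma adjusted p = 0.0415) and -1.57 (adjusted p = 0.0162), and Nxf3, an X-linked relative of mRNA export factors beside Bex4, was higher, with a difference of 2.41 (adjusted p = 0.0163). The Plpp1 call was lost in 8 alternatives and the Nxf3 call in 3, without MOSE-E replicate 2 or 3 in both genes.

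**Figure D4:**
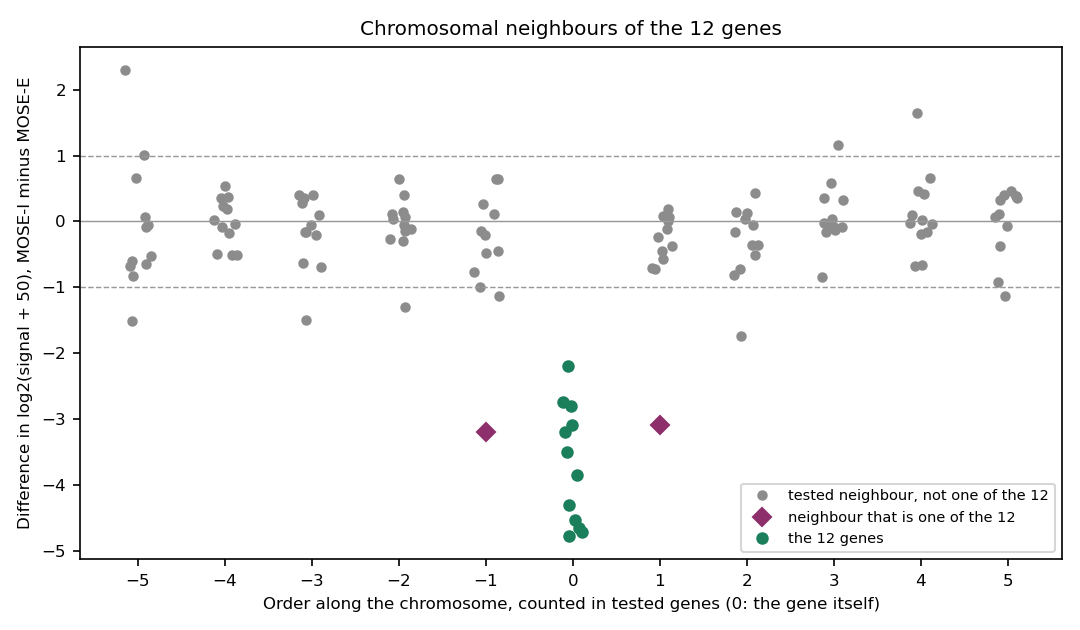
Difference in log2(signal + 50) between MOSE-I and MOSE-E cells (vertical axis) for the 12 genes (0 on the horizontal axis) and for up to 5 tested genes on each side, in their order along the chromosome. Dashed lines mark differences of 1 in either direction; Popdc3 and Bves appear as each other's neighbour, and the other nearest neighbours have a median of -0.22.

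Several of these lists had 0 genes called higher at MOSE-I with limma. At an unadjusted p under 0.05 and with no minimum difference, limma gave 1 higher collagen gene, 1 gene of the IGF axis, 2 imprinted genes, 1 gene of the X chromosome list, 2 palmitoyltransferases, 1 gene of the Bex and Tceal cluster, and 0 basement membrane genes, heat shock proteins or genes of the Klhl13 group. Of the nearest neighbours 2 were higher and 3 lower on this count. In MOSE-L cells, where 0 were called higher, limma gave at an unadjusted p under 0.05 0 higher genes of the X chromosome list, 1 basement membrane gene and 2 heat shock proteins.

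The rule used no sequence, so the promoters were compared next. RefSeq promoter windows (250 bases before to 50 after the start, GRCm38.p6) were found for 8 of the 12 genes, 17 windows in all, and for 14453 genes on the array. A window met CpG island criteria when at least 50% of its bases were G or C and the observed over expected CpG ratio was at least 0.6. A window did so in 3 of the 8 genes (37.5%, 95% Wilson interval 13.7 to 69.4%), beside 57.2% of all genes on the array and 82.5% of the other genes over 500 on all MOSE-E arrays. It did so in 2 of 9 genes (22.2%) that were high until MOSE-I and low in MOSE-L cells. The 3 genes were Ddx4, Grb10 and Satb1. Their windows with the highest CpG ratio are printed with that of Col11a1, which has few CpG, because the letters show this difference in CpG density directly. CpG dinucleotides are in capitals, all other bases are in lower case, and each runs 5′ to 3′ on the strand of the gene. The Ddx4 window is at chr13:112652261-112652560 (minus strand), that of Grb10 at chr11:12037371-12037670 (minus strand), that of Satb1 at chr17:51832598-51832897 (minus strand) and that of Col11a1 at chr3:114030290-114030589 (plus strand).
Ddx4: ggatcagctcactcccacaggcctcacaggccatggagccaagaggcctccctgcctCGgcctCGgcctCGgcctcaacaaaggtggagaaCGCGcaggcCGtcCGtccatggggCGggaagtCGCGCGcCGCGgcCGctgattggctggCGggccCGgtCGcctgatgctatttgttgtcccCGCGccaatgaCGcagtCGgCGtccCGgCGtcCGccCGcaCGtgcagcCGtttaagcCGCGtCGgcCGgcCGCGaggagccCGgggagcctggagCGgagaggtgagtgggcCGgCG
Grb10: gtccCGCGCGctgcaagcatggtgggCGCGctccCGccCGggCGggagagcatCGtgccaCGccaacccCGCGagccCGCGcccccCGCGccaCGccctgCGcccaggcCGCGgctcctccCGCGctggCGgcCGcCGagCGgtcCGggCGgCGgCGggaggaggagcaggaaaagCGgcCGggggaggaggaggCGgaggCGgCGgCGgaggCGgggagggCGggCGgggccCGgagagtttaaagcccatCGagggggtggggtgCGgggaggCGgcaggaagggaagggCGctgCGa
Satb1: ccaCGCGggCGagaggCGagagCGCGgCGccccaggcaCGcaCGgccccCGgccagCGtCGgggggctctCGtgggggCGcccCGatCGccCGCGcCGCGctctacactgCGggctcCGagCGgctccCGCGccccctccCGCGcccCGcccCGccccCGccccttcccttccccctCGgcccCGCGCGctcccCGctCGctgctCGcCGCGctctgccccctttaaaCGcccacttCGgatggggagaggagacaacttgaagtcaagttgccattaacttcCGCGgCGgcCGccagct
Col11a1: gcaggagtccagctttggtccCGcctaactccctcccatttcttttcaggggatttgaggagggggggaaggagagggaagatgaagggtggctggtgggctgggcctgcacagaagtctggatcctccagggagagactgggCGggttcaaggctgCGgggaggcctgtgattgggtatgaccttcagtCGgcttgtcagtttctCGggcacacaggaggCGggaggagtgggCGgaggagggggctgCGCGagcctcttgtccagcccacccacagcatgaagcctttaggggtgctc

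The Ddx4 window holds 38 CpG at 72.0% G and C and a ratio of 0.978, that of Grb10 45 at 80.0% and 0.973, and that of Satb1 45 at 76.7% and 1.06. The Col11a1 window holds 9 CpG at 62.3% and a ratio of 0.332. Bex4, Col8a1, Hspa1b and Klhl13 likewise had no window past both criteria, with highest ratios from 0.334 for Bex4 to 0.577 for Hspa1b. Of 9 short motifs searched on both strands, the TATA box TATAAA occurred in 0 of the 17 windows, beside 9.77% of 18110 windows on the array, and GGGCGG, bound by Sp and Klf factors, in 10 of 17 (58.8%), beside 52.3%. CCAAT occurred in 29.4% of the 17 windows and in 37.4% of all, the E-box CANNTG in 70.6% and 67.4%, and its form CAGCTG, which overlaps it, in 17.6% and 16.4%. TGANTCA (AP-1) and GGAATG (TEAD) each occurred in 1 of the 17 windows (5.88%), beside 6.38% and 13.2% of all. TTCCGG (Ets) occurred in 11.8%, beside 20.9%, and TGACGTCA (CRE) in 0, beside 2.49%. Windows of 1 gene can overlap, so these shares are not over independent sequences.

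**Figure D5:**
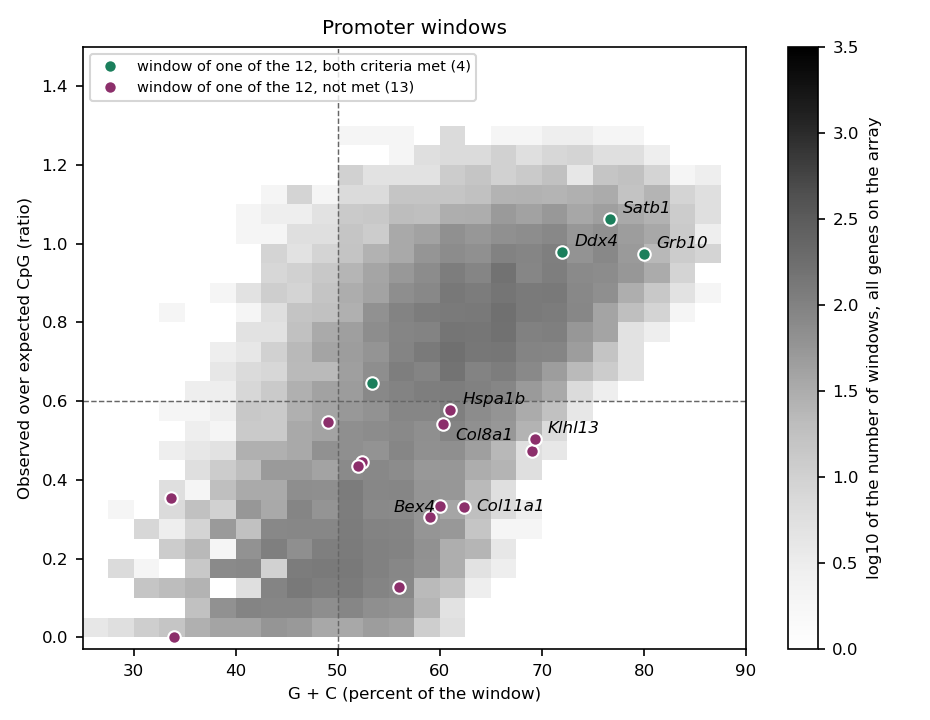
Share of G and C (horizontal axis, percent) and observed over expected CpG (vertical axis, ratio) of promoter windows of 300 bases, for 18110 windows of genes on the array (grey squares, darker for more windows on a log10 scale) and for the 17 windows of 8 of the 12 genes (points). Dashed lines mark 50% and 0.6; 4 windows, of Ddx4, Grb10 and Satb1, lie past both, and each gene is labelled at its window with the highest ratio.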

How the data were processed

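Total RNA of 9 MOSE cultures was hybridised to Affymetrix whole-genome mouse arrays, 3 per stage. The authors made the deposited intensities with MAS 5.0, as linear signals per probe set, and scaled every array to a trimmed mean of 500. Detection calls were not used here. Of 45101 probe sets, 64 controls were left out. Probe sets named 1 gene (34958), several (932) or none (9211), and 34754 were matched by gene ID to the RefSeq table of GRCm38.p6. The members were found by the rule, and the members and gene lists were chosen with earlier results of these data known. Signals over 500 on at least 1 array (13845 probe sets, 7952 genes) were tested as log2(signal + 50) in limma 3.58.1 under R 4.3.3, with 1 mean per stage over all 9 arrays, moderated variances with a trend on the mean signal, and Benjamini-Hochberg adjustment over all tested probe sets. A call needed a difference of 1 or more on the log2 scale and an adjusted p no higher than 0.05. The scale understates the fold of dim genes, since 32.4% of all signals lay under the added 50. Each gene of a list took its tested probe set with the highest mean signal. The procedure was tested on simulated data. Every member could be named. Other genes were named from lists that hold a member, as up to 4 called genes with the largest absolute difference between MOSE-I and MOSE-E, and as those nearest to the limits. Family members, neighbours and markers outside this rule were named after their values were seen. Precision is limited by having 3 arrays for each stage. Median signals per array ran from 93.2 to 130.0. Alternatives were another added value, filter, normalization, variance, threshold or set of groups, the methods' t-test, the replicate number as a block, other limits of the rule, and leaving out each array.

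Whether equal replicate numbers pair the arrays was checked by the correlation of deviations from the stage means, which ran from -0.113 to 0.410 and exceeded 0.1 in 2 of 9 pairs. Both were between MOSE-E and MOSE-L arrays, 0.410 for replicate 1 and 0.262 for replicate 2, beside 0.019 for replicate 3. The replicate numbers were not taken to pair the arrays, and the fit with them as a block is given as an alternative.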

Additional observations from a re-analysis of the deposited data

How the results depend on the processing

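The number of genes that the rule took depended on its limits and on single arrays. It was 4 with MOSE-E signals over 1000, 3 with later signals under 100, 25 with limits of 400 and 250, and 12 to 31 with each array left out. Without MOSE-E replicate 1, MOSE-I replicate 1 and MOSE-L replicate 3 together, an alternative chosen after seeing the data, it was 40, all 12 among them. Quantile normalization kept 10 of the 12 and lost Col8a1 and Nid2, and an equal median per array kept 8, losing Hspa1b and Zdhhc2 as well and gaining Gabra4. The count of probe sets lower in MOSE-I cells was 145 at an adjusted p of 0.01, 10 with the methods' t-test after Benjamini-Hochberg adjustment, and 87 to 739 with each array left out. For MOSE-L against MOSE-E the same settings gave 640, 267 and 681 to 1195, and for either direction between MOSE-L and MOSE-I 868, 10 and 1156 to 2770. At the unadjusted threshold the methods' t-test gave 681, 967 and 1477. The call of Nid2 between MOSE-L and MOSE-I, 1 of 12, became 0 with an added value of 200, no filter, a filter at 1000, only the groups compared, an adjusted p of 0.01 and the adjusted t-test, and it was 0 or 1 with each array left out.

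With the replicate number as a block, 590 probe sets were lower in MOSE-I, 1027 lower in MOSE-L and 1996 different between MOSE-L and MOSE-I cells, and 0 of the 12 members were called between the later stages. No difference of a member from MOSE-E changed sign under any alternative run. The rule had set every MOSE-E signal of a member above every later one, so nothing is read from this. Stricter CpG criteria (55% and 0.65) left 37.5% of the genes, beside 48.8% of all genes on the array and 71.4% of those over 500 on all MOSE-E arrays. Counting every window by itself, an alternative chosen after seeing the data, gave 23.5%, beside 51.9% and 74.4% of the windows of these groups. With 2 neighbours on each side 4.55% were called lower, and of neighbours within 1000000 bases 6.67%. Where the neighbours, or lists that hold one of the 12 genes, had 0 genes called higher, the methods' t-test without adjustment also gave 0. The 26 genes of smooth muscle and the actin cytoskeleton had 0 called higher at MOSE-I too. There this t-test gave 1 higher and limma 2, each at an unadjusted p under 0.05.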
